A study of Mus musculus with 7 samples.

Results

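Ecad-negative wells of mouse mammary tumours were divided by how much of their RNA came from 2 milk protein genes. The animals carried PyMT, the polyoma virus middle T antigen that drives mammary tumours, and single cells were sorted by E-cadherin (Ecad), the epithelial adhesion protein encoded by Cdh1. Cells were read by CEL-seq, which counts the 3′ ends of transcripts in each well with molecular barcodes. The TEneg wells (solid tumour, Ecad-negative) were compared with each other and with TEpos wells (solid tumour, Ecad-positive) of the same 4 libraries, and cells sorted from blood (BEneg, Ecad-negative, and BEpos, Ecad-positive) served as background. All populations came from PyMT mice, and the promoter of the transgene, the strain and the age of the animals are not given in the sources used here. Of 96 TEneg wells, 69 held at least 500 transcripts of named mouse genes and 27 fell below that minimum. The 69 were part of 220 wells that passed, of 312 wells in all. The wells were chosen by 2 measured values, their transcript total and their milk-gene share. A well was called milk-high where Csn3 and Wfdc18 together made up at least 1% of its transcripts, and milk-low where they made up less. There were 38 milk-high wells (11, 15, 8 and 4 in libraries 1 to 4) and 31 milk-low wells (8, 7, 6 and 10).

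Milk genes are the secretory products of luminal alveolar cells, the mammary cells that face the duct lumen and respond to prolactin through the transcription factor STAT5. Csn3 encodes kappa-casein, which keeps casein micelles in solution, and Wfdc18 encodes a small secreted protein of the whey acidic protein family. Around the luminal cells lies a basal layer of contractile myoepithelial cells that make smooth muscle actin (Acta2) and rest on a basement membrane of collagen IV and laminin. PyMT tumours arise from luminal cells and can keep part of the milk programme. Loss of E-cadherin from the surface is a classical feature of epithelial-to-mesenchymal transition (EMT), but cells that never carried it, such as endothelial cells, fibroblasts and leukocytes, pass the same gate.

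Csn3 lies on chromosome 5 (chr5:87925579-87932550, GRCm38.p6, the assembly of mm10) and Wfdc18 on chromosome 11 (chr11:83709004-83711360). The split rests on Wfdc18 and Csn3, and the 1 other gene called higher in milk-high wells was Lcn2 on chromosome 2 (chr2:32384637-32387739), so the 300 bases around the RefSeq start sites of Wfdc18 and Lcn2 (250 before to 50 after, GRCm38.p6) are shown, written in the direction of the gene. They cover chr11:83708754-83709053 on the plus strand and chr2:32387690-32387989 on the minus strand. Capitals mark TATAAA, searched on both strands. It began 31 bases before the start of Wfdc18 (position -31) and was not in the Lcn2 window, and 13.6% of 32851 promoters of this length held it.
Wfdc18: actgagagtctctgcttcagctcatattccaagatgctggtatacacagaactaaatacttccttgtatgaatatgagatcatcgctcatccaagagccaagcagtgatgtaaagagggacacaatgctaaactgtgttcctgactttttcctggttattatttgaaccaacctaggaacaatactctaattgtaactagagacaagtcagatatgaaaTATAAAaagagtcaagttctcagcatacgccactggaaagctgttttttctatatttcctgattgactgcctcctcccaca
Lcn2: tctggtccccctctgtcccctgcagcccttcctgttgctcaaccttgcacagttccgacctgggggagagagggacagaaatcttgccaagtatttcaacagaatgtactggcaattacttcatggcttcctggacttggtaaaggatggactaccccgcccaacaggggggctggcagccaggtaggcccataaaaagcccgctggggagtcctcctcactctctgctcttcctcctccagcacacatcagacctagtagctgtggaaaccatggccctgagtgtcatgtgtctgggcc
The letters TTCNNNGAA, the form of site that STAT5 is known to bind, were in neither window on either strand, against 8.3% of the 32851 promoters.

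Milk-gene RNA was present in every TEneg well, at lower levels than in most TEpos wells and at higher levels than in most wells from blood. These shares chose the wells and are given as a description. The share ran from 0.4595% to 3.003% over the 69 TEneg wells, with a median of 1.028%. The median was 1.462% in milk-high wells and 0.6976% in milk-low wells. It was 2.325% in 71 TEpos wells, 0.1557% in 60 BEneg wells and 0.029% in 20 BEpos wells. The 1% line was reached by 55.1% of TEneg wells (95% exact binomial interval 42.6 to 67.1), against 83.1% of TEpos wells (72.3 to 91.0), 1 of 60 BEneg wells and 0 of 20 BEpos wells. By library it was reached by 57.9%, 68.2%, 57.1% and 28.6% of TEneg wells, against 88.9%, 63.2%, 87.5% and 94.4% of TEpos wells, so TEneg was lower in libraries 1, 3 and 4 and higher in library 2.

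**Figure D1:**
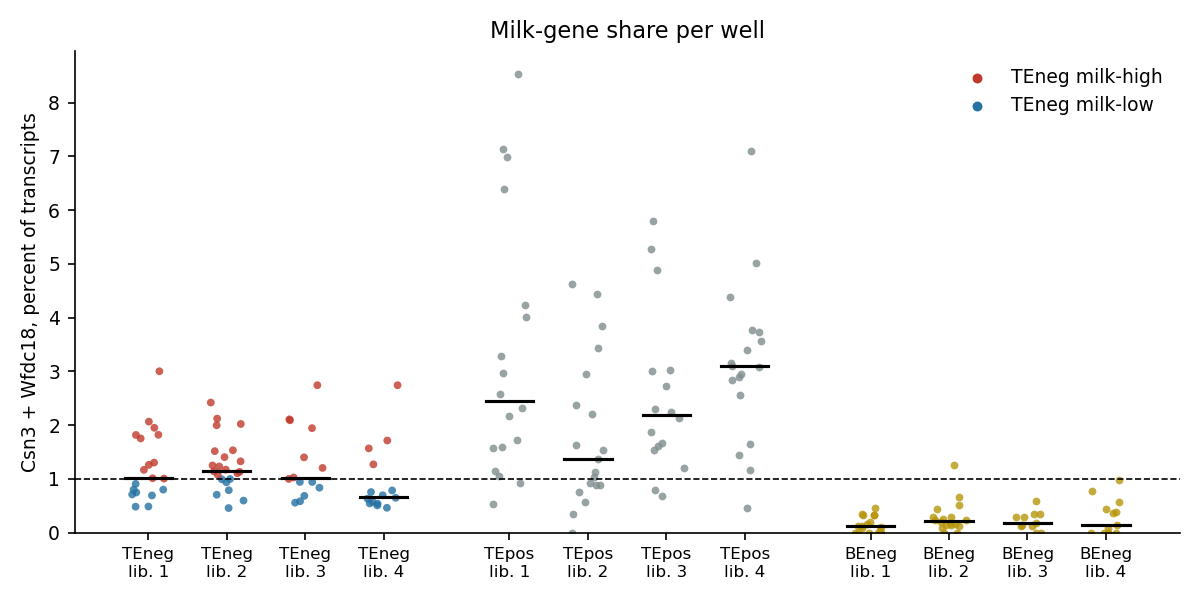
Share of Csn3 and Wfdc18 among the transcripts of each well (percent, y axis) by sorted population and library (x axis), with the median as a bar and the 1% threshold as a dashed line. TEneg wells lie close around the threshold, TEpos wells spread above it, and BEneg wells lie below it with 1 exception.

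The threshold cut through a continuous range and not between separate groups. Of the 69 wells, 19 had a share between 0.8% and 1.2%, with 9 below 1% and 10 at or above it. The 3 wells just under the threshold had 0.945%, 0.994% and, rounded, 1.0% (18.3 milk transcripts of 1833), and the 3 just inside had 1.0% (9.08 of 907), 1.01% and 1.01%. The count behind a share was small: milk-high wells held a median of 11.77 Csn3 and 11.24 Wfdc18 transcripts, against 6.071 and 5.049 in milk-low wells. Csn3 was found in all 69 TEneg wells and Wfdc18 in 65, all 4 wells without Wfdc18 being milk-low. For comparison, Csn3 was found in 69 of 71 TEpos wells and in 31 of 60 BEneg wells, at median depths of 1603 transcripts in TEneg, 2064 in TEpos and 819.4 in BEneg. Across the TEneg wells the shares of Csn3 and Wfdc18 had a Spearman correlation of 0.359, and of 0.409, 0.564, 0.613 and 0.426 within libraries 1 to 4, where the wells share a library and both shares have the well's depth as denominator.

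In levels per 10000 transcripts of a class, Csn3 stood at 78.1, 121, 83.3 and 144 in milk-high and at 26.8, 37.6, 34.1 and 47.4 in milk-low wells of libraries 1 to 4, against 147, 110, 106 and 178 in TEpos. Wfdc18 stood at 78.3, 87.9, 101 and 54.1 in milk-high and at 42.3, 38.6, 33.2 and 12.7 in milk-low wells, against 216, 89.6, 118 and 120 in TEpos. Library 4 had the highest Csn3 and the lowest Wfdc18 of both TEneg classes. Depth overlapped between the classes: the mean over libraries of the median transcripts per well was 1452 in milk-high and 1674 in milk-low wells, lower in milk-high in 3 of 4 libraries (difference -222.4, SD 442.8, exact two-sided sign-flip permutation test over 4 libraries, p = 0.375, smallest possible 0.13). Genes per well averaged 908.1 in milk-high and 936.4 in milk-low wells by the same measure (exact permutation p = 0.875). Well by well, the milk share had a Spearman correlation with the transcript total of -0.12 over the TEneg wells. Within libraries 1 to 4 it was -0.312, -0.225, -0.411 and -0.178, where the total is also the denominator of the share.

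One milk-high well of library 2 stood apart, with 61227 transcripts, a milk share of 2.42% and 68.3% of the transcripts of its class in that library. Its Lcn2, Csn3 and Wfdc18 used 254, 248 and 231 of the 256 possible molecular barcodes, which is near the limit of what such barcodes can count. Values without it are given beside several of the results. The transcripts summed per class came to 21360, 89680, 7792 and 4531 in milk-high and to 15890, 20220, 10420 and 12660 in milk-low wells of libraries 1 to 4, and these sums are the units of the tests (n = 4 libraries). Of the 96 well barcodes, 72 were used in all 4 libraries and 24 in 1, as plate positions, so a shared barcode does not mark a shared cell.

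Apart from the 2 genes that made the split, 1 gene was higher in milk-high wells and 8 were lower, of 886 genes tested. The higher one was Lcn2, another milk protein gene. The lower ones were Acta2 (smooth muscle actin), 1500015O10Rik, Timp3, Neat1, H3f3b, Ptchd1, Col4a1 (a collagen IV chain) and Eln (elastin). The calls were made with edgeR's quasi-likelihood test on the sums, with library as a block and a Benjamini-Hochberg adjusted p under 0.05. They came to 1.02% of the genes tested (0.113% higher, 0.903% lower), and 62 genes had an unadjusted p under 0.05. The class levels of the 4 libraries did not overlap for 29 genes, which is 3.27% of those tested. A gene could enter the test through 1 well-filled sum, since TEpos milk-low wells formed a class in library 2 only, and 337 genes passed when all TEpos wells made 1 class. In that fit Lcn2 was the gene still called, and Acta2, H3f3b, Ptchd1 and Col4a1 were tested without a call. The genes 1500015O10Rik, Timp3, Neat1 and Eln did not pass its filter, so it could not retest them. Each of these was highest in a milk-low sum, so it could enter the 886 through the class where it was high. The same filter chose the tested members of the gene lists below, so their signs and medians carry this limit too.

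Lcn2, which encodes lipocalin 2, an iron-siderophore binding protein secreted into milk and also made by neutrophils, was measured at 74.7, 169, 79.1 and 109 transcripts per 10000 in milk-high wells and at 48.0, 58.2, 64.1 and 44.3 in milk-low wells of libraries 1 to 4. Every milk-high library lay above every milk-low library. The log2 fold change was 0.93 (SE 0.18, edgeR adjusted p = 0.00145), with milk-high above milk-low in each of 4 libraries. The large well supplied 71.1% of the Lcn2 transcripts of milk-high wells. Without it, library 2 stood at 85.0 per 10000 in milk-high wells, still above 58.2 in milk-low wells, and the log2 fold change was 0.62 (edgeR adjusted p = 0.0884), which is no longer called. Leaving out library 2 gave 0.66 (edgeR adjusted p = 0.0975). With every well thinned to 500 transcripts it was 0.83 (edgeR adjusted p = 0.0138). The thinned wells were divided anew by their share, into 13, 15, 9 and 5 milk-high and 6, 7, 5 and 9 milk-low wells.

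Well by well, the Lcn2 level ran from 15.2 to 208 per 10000 in TEneg, with a median of 79.4 in milk-high and 46.3 in milk-low wells. All 38 milk-high and all 31 milk-low wells held Lcn2, as did 70 of 71 TEpos and 51 of 60 BEneg wells, so its presence did not mark a class. Its amount overlapped between wells of the classes, with a highest milk-low well of 134 per 10000. The Spearman correlation of the Lcn2 level with the milk share across the TEneg wells was 0.576, and 0.486, 0.61, 0.411 and 0.679 within libraries 1 to 4. Taken singly, Csn3 gave 0.581 and Wfdc18 0.355. In TEpos wells the correlation of Lcn2 with the milk share was 0.322. These are descriptions over wells that share a library and a denominator.

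The neutrophil genes, which could carry Lcn2 from another cell type, made up 0.393%, 0.169%, 0.302% and 0.568% of transcripts in milk-high wells and 0.553%, 0.17%, 0.223% and 0.376% in milk-low wells, against 10.3%, 10.8%, 4.79% and 7.09% in BEneg wells. The TEneg classes overlapped, and milk-high was the higher in 2 of 4 libraries. All 11 measured neutrophil genes had transcripts in TEneg. Of the 3 neutrophil genes tested none was called between the classes.

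Among the other milk genes, the list held 22 genes beside the 2 that made the split, of which 16 were measured and 4 were tested. One of the 4, Lcn2, was called higher and none lower, and all 4 had positive log2 fold changes with a median of 0.657, against -0.0533 over all genes tested. Ltf, which encodes lactoferrin, an iron-binding milk protein, had 6.23, 23.6, 13.3 and 4.51 transcripts per 10000 in milk-high wells and 5.73, 10.6, 1.94 and 2.39 in milk-low wells. It was higher in milk-high wells in 4 of 4 libraries without being called (log2 fold change 1.2, SE 0.44, edgeR adjusted p = 0.349), and its library 2 value was 3.22 without the large well, below the milk-low value. Trf (transferrin, log2 fold change 0.19, SE 0.19) and Lalba (alpha-lactalbumin, the regulator of lactose synthesis, 0.39, SE 0.85) were not called either (edgeR adjusted p = 0.905 and 0.968). Lalba rested on 22 transcripts in milk-high and 7 in milk-low wells. Without the large well the median of the 4 genes was 0.182 and 2 of the 4 were positive. The 16 genes, Lcn2 among them, made up 1.19%, 2.75%, 1.48% and 1.75% of transcripts in milk-high wells and 0.956%, 1.17%, 1.12% and 1.04% in milk-low wells, with no overlap. In TEpos they made up 2.14%, 2.27%, 1.94% and 2.4%, above both classes except for library 2 of milk-high. Lcn2 alone stood at 74.7, 169, 79.1 and 109 per 10000 in milk-high and 48.0, 58.2, 64.1 and 44.3 in milk-low wells. The sum without Lcn2 or the large well was not compared, so the gap cannot be credited to the other genes.

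**Figure D2:**
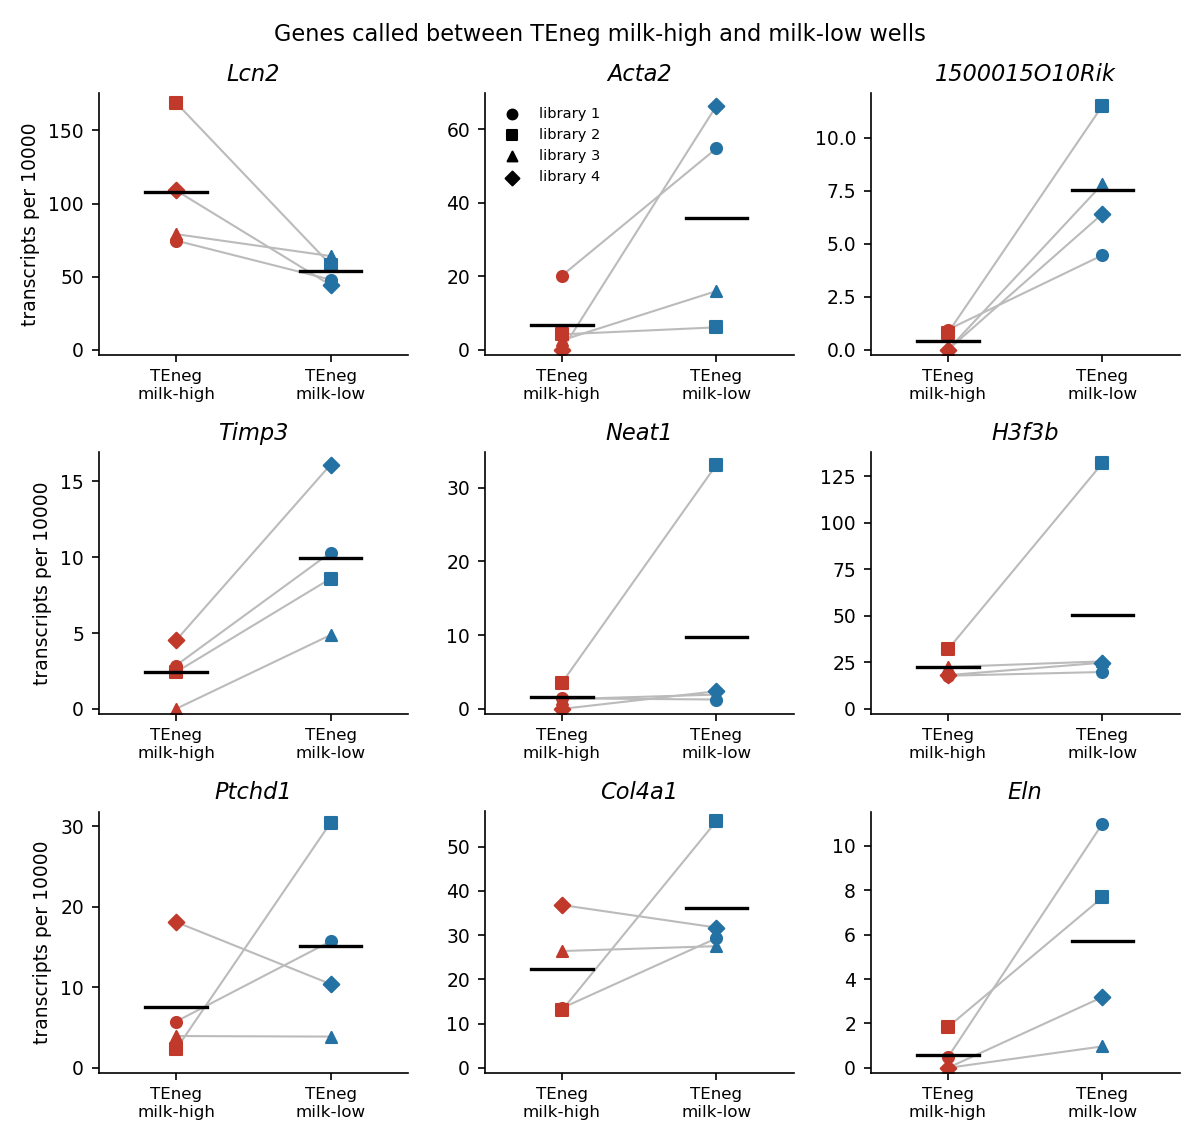
Level of the 9 called genes (transcripts per 10000, y axis) in TEneg milk-high wells (left) and milk-low wells (right), with 1 symbol per library, grey lines joining the classes of a library and bars at the means. Lcn2, 1500015O10Rik and Timp3 do not overlap between the classes, while Neat1 and H3f3b depart in milk-low wells of library 2 alone.

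Smooth muscle actin was the gene with the next smallest p. Acta2 (chr19:34240336-34255585, GRCm38.p6) had 20.2, 4.23, 2.62 and 0 transcripts per 10000 in milk-high wells and 54.8, 6.13, 16.0 and 66.4 in milk-low wells of libraries 1 to 4. It was lower in milk-high wells in every library, although the milk-high value of library 1 exceeded the milk-low values of libraries 2 and 3. The 0 of library 4 allows up to 6.76 per 10000 at that depth. The log2 fold change was -1.78 (SE 0.36, edgeR adjusted p = 0.00222). Acta2 was seen in 9 of 38 milk-high wells and in 15 of 31 milk-low wells, against 16 of 71 TEpos wells, or in 13.2%, 38.7% and 7.04% of wells after thinning to 500 transcripts. The call was lost without library 4 (log2 fold change -1.3, edgeR adjusted p = 0.24). It was also lost with wells thinned to 500 transcripts and divided anew by their share (-0.91, edgeR adjusted p = 0.819).

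Eln and Timp3 belong to the extracellular matrix, Eln as elastin and Timp3 as a matrix-bound inhibitor of metalloproteinases. Timp3 had 2.86, 2.42, 0 and 4.51 transcripts per 10000 in milk-high wells and 10.3, 8.59, 4.87 and 16.1 in milk-low wells, with no overlap (log2 fold change -2.06, SE 0.50, edgeR adjusted p = 0.0128). Eln had 0.477, 1.84, 0 and 0 in milk-high wells and 11, 7.68, 0.969 and 3.19 in milk-low wells, lower in milk-high wells in every library (log2 fold change -2.78, SE 0.79, edgeR adjusted p = 0.0429). Eln rested on 17 transcripts in milk-high and 38 in milk-low wells. Both calls were lost without the large well (edgeR adjusted p = 0.0837 for Timp3, and above the threshold for Eln) and without library 1 or library 4.

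The gene listed as 1500015O10Rik, which RefSeq carries as an older name of Ecrg4, had 0.953, 0.801, 0 and 0 transcripts per 10000 in milk-high wells and 4.46, 11.5, 7.81 and 6.41 in milk-low wells, with no overlap. Its log2 fold change was -3.52 (SE 0.84, edgeR adjusted p = 0.00442), from 2, 7, 0 and 0 transcripts in milk-high and 7, 23, 8 and 8 in milk-low wells. A single milk-low well of library 2 held 23 of these transcripts, 49.8% of those in milk-low wells. It was called in 13 of the 18 alternatives that could test it.

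The 4 other calls leaned on single wells of library 2 or on few libraries. H3f3b, a histone H3.3 gene, had 17.8, 31.9, 22.5 and 18.1 transcripts per 10000 in milk-high wells and 19.8, 132, 25.5 and 24.8 in milk-low wells (log2 fold change -1.07, SE 0.27, edgeR adjusted p = 0.0191). One milk-low well of library 2 held 203 H3f3b transcripts of its 2040, or 9.93%, and the log2 fold change without that well was -0.18 (edgeR adjusted p = 0.948). The same well held 64 transcripts of Neat1, a nuclear long non-coding RNA, 87.7% of those in milk-low wells. Neat1 had 1.43, 3.54, 1.31 and 0 per 10000 in milk-high wells and 1.27, 33.1, 1.94 and 2.39 in milk-low wells and was lower in milk-high in 3 of 4 libraries (log2 fold change -2.35, edgeR adjusted p = 0.0128). Ptchd1, which encodes a patched-domain membrane protein, was lower in 2 of 4 libraries (log2 fold change -1.78, edgeR adjusted p = 0.0191), and 1 milk-low well held 52 transcripts, 50.4% of those in milk-low wells. That same library held the highest Col4a1, described below with its list.

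Luminal and epithelial genes were not called in either direction. Of 18 measured luminal genes 4 were tested, with a median log2 fold change of 0.632 and 3 of 4 positive (0.253 and 2 of 4 without the large well). Ehf, an epithelial ETS transcription factor, had 1.91, 4.59, 2.63 and 4.51 transcripts per 10000 in milk-high wells and 1.27, 0, 0 and 2.39 in milk-low wells, higher in 4 of 4 libraries but not called (log2 fold change 2.01, SE 0.82, edgeR adjusted p = 0.388). Clic6, a chloride channel family gene, had 2.39, 4.59, 2.62 and 4.52 in milk-high wells and 1.91, 1.5, 1.94 and 0.796 in milk-low wells, without a call (log2 fold change 1.14, SE 0.61, edgeR adjusted p = 0.705). Its classes did not overlap with the large well and did without it, where Ehf and Clic6 both stood at 1.79 in library 2. Gata3, a luminal transcription factor (log2 fold change -0.00, SE 0.55), and Slc12a2, a sodium-potassium-chloride transporter (0.12, SE 0.69), had edgeR adjusted p of 1.0 and 0.987.

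Of the 18 epithelial genes, all measured, 9 were tested, 7 of them with positive log2 fold changes and a median of 0.531 (8 and 0.264 without the large well). Cdh1, the gene of the sort marker, had 4.77, 7.08, 2.62 and 4.51 transcripts per 10000 in milk-high wells and 5.73, 4.0, 1.94 and 2.39 in milk-low wells, against 3.5, 3.71, 11 and 6.04 in TEpos. All 3 groups overlapped, and the TEneg classes gave no call (log2 fold change 0.53, SE 0.50, edgeR adjusted p = 0.881 between the TEneg classes). It was seen in 18 of 38 milk-high and 13 of 31 milk-low wells, against 43 of 71 TEpos wells. Epcam, an epithelial adhesion gene, had 7.17, 13.5, 6.56 and 6.78 in milk-high wells and 7.01, 5.01, 4.85 and 4.79 in milk-low wells, more in milk-high in each of 4 libraries and not called (log2 fold change 0.77, SE 0.39, edgeR adjusted p = 0.706). The keratins of luminal cells Krt8 (0.32, SE 0.43) and Krt18 (0.62, SE 0.43) had edgeR adjusted p of 0.953 and 0.822. Cldn3, a tight junction claudin, had a log2 fold change of 0.88, the splicing factor Esrp1 0.54, Cd24a 0.27, Cd9 -0.04 and Perp -0.79, with no call.

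The basal and myoepithelial list divided the wells more than the summed levels show. Of its 12 measured genes, 9 were tested, 1 of them (Acta2) was called lower and none higher, and the median log2 fold change was -1.0, with 7 of 9 negative. In the fit of 337 genes 2 of the list passed the filter, Acta2 and Igfbp5. Mylk, Myl9, Oxtr and Krt5 did not, and each was highest in a milk-low sum. They could enter through the class where they were high, so the signs and the median are not a result about the list. The contractile genes Mylk, Myl9 and Tagln had log2 fold changes of -1.61, -1.47 and -1.0, with edgeR adjusted p of 0.184, 0.592 and 0.705. Mylk, the myosin light chain kinase gene, had 2.39, 2.2, 2.62 and 2.26 transcripts per 10000 in milk-high wells and 9.67, 3.0, 2.91 and 31.6 in milk-low wells, with no overlap, although its library 2 value without the large well, 3.24, exceeded 2 of the milk-low values. The oxytocin receptor gene Oxtr had a log2 fold change of -1.64 and Igfbp5, whose product binds insulin-like growth factors, -0.38. Among the basal keratins, Krt5 had -0.17 and Krt14 0.49, with standard errors of 1.04 and 0.96, and Tpm2, a tropomyosin gene, had 0.30. Together the 12 genes made up 1.15%, 0.89%, 0.663% and 0.685% of transcripts in milk-high wells and 1.93%, 0.625%, 0.892% and 3.04% in milk-low wells, lower in milk-high in 3 of 4 libraries and overlapping.

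**Figure D3:**
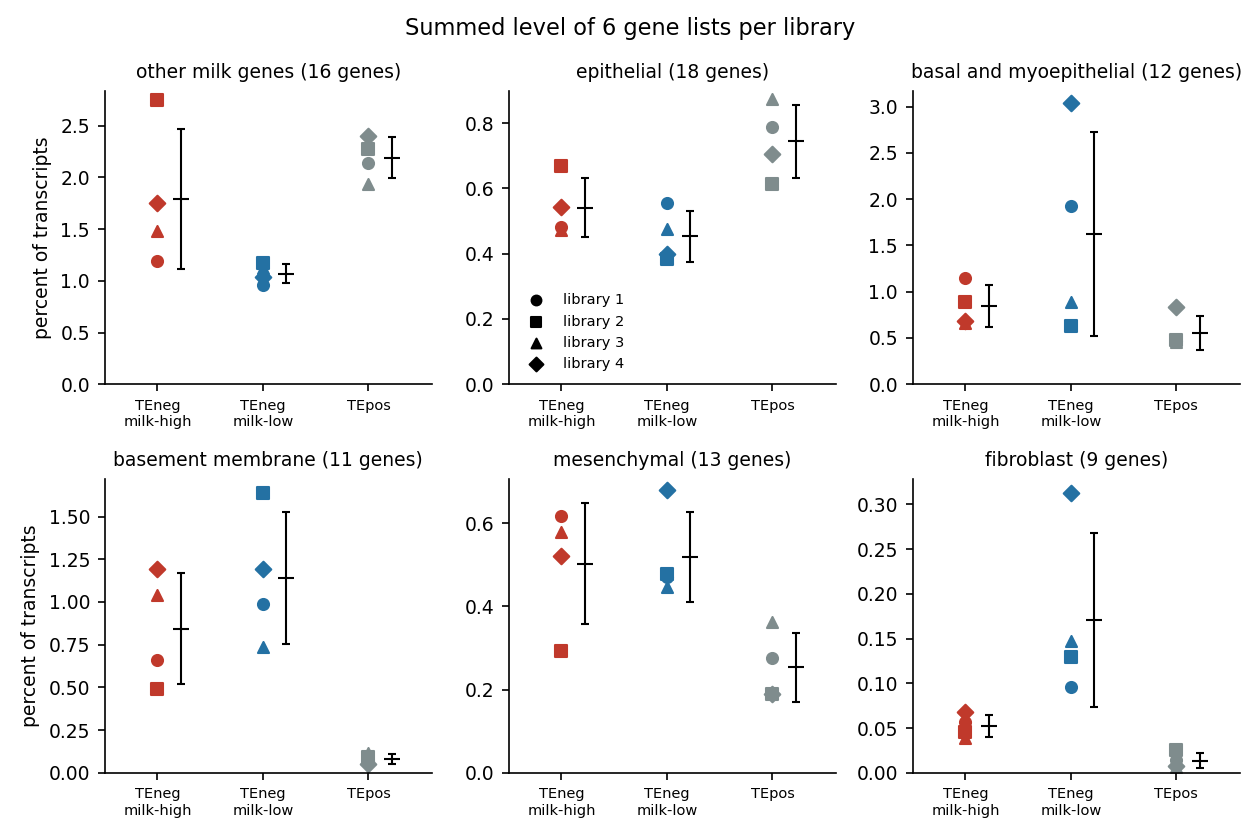
Summed level of 6 gene lists (percent of transcripts, y axis) in TEneg milk-high, TEneg milk-low and TEpos wells, 1 symbol per library, with mean ± SD beside them. Milk-high and milk-low wells do not overlap in the other milk genes (Lcn2 included) and the fibroblast genes (mostly Mgp and Serpinf1 in milk-low wells). Both classes lie above TEpos in the basement membrane genes.

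Counted by well, 2 of 38 milk-high wells (5.26%, 95% exact interval 0.644 to 17.7) and 12 of 31 milk-low wells (38.7%, 21.8 to 57.8) had a larger share of basal and myoepithelial genes than every TEpos well. By library this was 1 of 11, 1 of 15, 0 of 8 and 0 of 4 milk-high wells and 4 of 8, 1 of 7, 2 of 6 and 5 of 10 milk-low wells. Milk-high was lower in 4 of 4 libraries, and the exact two-sided sign-flip permutation test gave p = 0.13, the smallest that 4 libraries allow. These wells are called basal-rich by the sum of the list, to which Igfbp5 gave more transcripts than any other gene. Igfbp5 had 795 transcripts in milk-high, 442 in milk-low and 846 in TEpos wells. Acta2, the next gene, had 82, 199 and 26. Igfbp5 was also found in 66 of 71 TEpos wells, so the sum does not rest on genes confined to basal cells. A sum without Igfbp5 was not tested. The 14 basal-rich wells had a median milk share of 0.681% (0.465% to 1.14%), and all 14 held Csn3. Some of the genes called lower in milk-high wells were held mostly by basal-rich wells and others were not. Of the milk-low wells that held the gene, 8 of 9 for 1500015O10Rik, 7 of 11 for Eln and 11 of 15 for Acta2, itself a member of the list, were basal-rich. The counts were 7 of 15 for Timp3, 8 of 17 for Ptchd1, 10 of 23 for Col4a1, 12 of 31 for H3f3b and 3 of 9 for Neat1, against 12 of all 31 milk-low wells. They were not made at equal depth: the 14 basal-rich wells had a median of 2173 transcripts, against 1664 in all milk-low wells. Without the 14 basal-rich wells Lcn2, which is not on that list, had a log2 fold change of 1.03 (edgeR adjusted p = 0.000863). The large well, with a milk share of 2.42%, was still in this fit, and no fit was made without both.

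**Figure D4:**
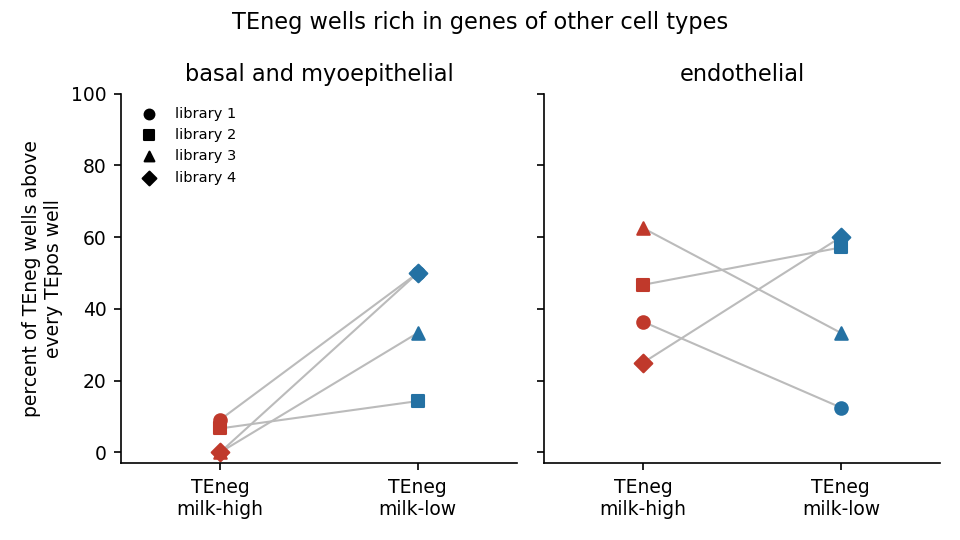
Percent of TEneg wells (y axis) whose share of basal and myoepithelial genes (left panel) or endothelial genes (right panel) exceeds that of every TEpos well, for milk-high and milk-low wells, with 1 symbol per library. Basal-rich wells are at 0 to 9.09% in milk-high and at 14.3% or more in milk-low wells, while endothelial-rich wells overlap.

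By the summed list, endothelial-rich wells were found in both classes at like shares. By the same measure, 17 of 38 milk-high wells (44.7%) and 13 of 31 milk-low wells (41.9%) were endothelial-rich, with per-library means of 42.6% ± 15.9 and 40.7% ± 22.3 (SD, n = 4) and an exact permutation p of 1.0. These 30 wells had a median milk share of 1.02%, close to that of all TEneg wells, and all 30 held Csn3. Sparcl1 gave the most transcripts to this sum, 103 in milk-high, 97 in milk-low and 68 in TEpos wells. It was found in 31 of 71 TEpos wells, so the sum does not rest on genes confined to endothelial cells. Of 13 measured endothelial genes 5 were tested and none was called between the classes. Cdh5, the vascular cadherin gene, was found in 17 milk-high and 7 milk-low wells, against 3 of 71 TEpos wells. Tie1 was found in 8 and 1, Esam in 8 and 3, Flt1 in 7 and 3, and Kdr and Tek each in 6 and 2 wells, milk-high first. Emcn (1 and 2) and Sparcl1 (20 and 22) were found in more milk-low wells. Immune-rich wells numbered 0 of 38 milk-high (up to 9.25% by the exact interval) and 2 of 31 milk-low. In all, 18 of 38 milk-high and 23 of 31 milk-low wells exceeded every TEpos well in at least 1 of these lists, and 28 TEneg wells exceeded them in none, 20 of which were milk-high. The labelled population thus held 41 of 69 wells with raised shares of these lists, and the wells are called here by their milk share. All 41 also held Csn3. Among blood wells, 15 of 60 BEneg and 6 of 20 BEpos held no milk-gene transcript and the rest did. Whether the cell in a well made the milk-gene RNA found there was not tested.

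The summed fibroblast list was low in both classes but did not overlap: the 9 measured genes made up 0.0526% ± 0.0125 of transcripts in milk-high wells and 0.171% ± 0.097 in milk-low wells (SD, n = 4), lower in milk-high in 4 of 4 libraries. Mgp (23 and 44 transcripts, milk-high first) and Serpinf1 (14 and 45) gave most of the sum in milk-low wells. Lum, Col6a2, Dpt and Fbln1 had 3, 4, 2 and 2 transcripts in milk-high wells and none in milk-low wells, and Col6a1 had 0 and 1. The gap thus rests on Mgp and Serpinf1 and is not shown for the list as a whole. A sum without them was not compared. Serpinf1, which encodes a secreted inhibitor of angiogenesis, was next by p after the 9 and not called (log2 fold change -2.38, SE 0.73, edgeR adjusted p = 0.0886). It had 0.477, 1.26, 0 and 4.51 transcripts per 10000 in milk-high wells and 2.55, 2.52, 10.8 and 19.3 in milk-low wells, lower in milk-high in 4 of 4 libraries. Monocyte and macrophage genes were at 0.228% ± 0.0873 in milk-high and 0.315% ± 0.0656 in milk-low wells, also lower in milk-high in 4 of 4 libraries, against 2.96% ± 0.607 in BEneg. The part of other cell types in the gene differences was not tested beyond the counts without these wells.

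The basement membrane genes tested had the same sign, without much support from single genes. Of 11 measured genes 7 were tested, all 7 had negative log2 fold changes with a median of -0.636, and 1, Col4a1, was called. In the fit of 337 genes 3 of the list passed the filter, Sparc, Col4a1 and Col4a2. Nid1 and Lamc1 did not, and each was highest in a milk-low sum. They could enter through the class where they were high, so the shared sign is not a result about the list. Col4a1 (chr8:11198423-11312889, GRCm38.p6), the alpha-1 chain of collagen IV, had 13.5, 13.0, 26.4 and 36.8 transcripts per 10000 in milk-high wells and 29.3, 55.8, 27.5 and 31.7 in milk-low wells (log2 fold change -1.07, SE 0.29, edgeR adjusted p = 0.0429), lower in milk-high in 3 of 4 libraries and overlapping. Without the large well it was -0.67 (edgeR adjusted p = 0.337), and 6 of the 7 genes were negative with a median of -0.164. Sparc, a collagen-binding matrix protein, had a log2 fold change of -0.64 and Col4a2 one of -0.59, and Lamc1, Nid1, Hspg2 and Lamb1, which encode laminin chains, nidogen and perlecan, had -1.13, -1.21, -0.48 and -0.28, none called.

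Mesenchymal genes gave no call either. Of 13 measured genes 8 were tested, 3 with positive and 5 with negative log2 fold changes and a median of -0.301, which became 0.00725 without the large well. Vim, the intermediate filament gene used as a mark of mesenchymal cells, had 7.17, 4.99, 18.5 and 20.4 transcripts per 10000 in milk-high wells and 8.36, 19.7, 7.79 and 24.1 in milk-low wells, fully overlapping (log2 fold change -0.64, SE 0.37, edgeR adjusted p = 0.805). Bgn and Cald1 had -0.27 and -0.89, the fibrillar collagen genes Col1a1, Col1a2 and Col3a1 0.45, -0.44 and -0.33, and S100a6 and Lgals1 0.67 and 0.53. None of the 7 measured EMT transcription factor genes passed the filter, so none was tested. Their summed share was 0.0276% ± 0.0281 in milk-high and 0.0272% ± 0.00897 in milk-low wells, against 0.00322% ± 0.00228 in TEpos.

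Both TEneg classes were then set beside TEpos wells of the same libraries, in 1 fit of 337 genes. The comparisons share the TEpos sums, so their values are given side by side and not as independent results. Milk-high wells had 15 genes higher and 0 lower than TEpos (4.45% of those tested, with 53 genes at an unadjusted edgeR p under 0.05). The DESeq2 Wald test also gave 0 lower. Other settings gave some: 5 lower with limma on means of wells, 3 with library totals alone, 56 without a filter and 6 at the 2% threshold. Leaving out the large well, milk-high wells had 24 higher and 6 lower of 339 tested. Milk-low wells had 20 higher and 8 lower (5.93% and 2.37%), and 30 and 14 in the fit without the large well. In either class the basement membrane genes Sparc, Col4a1 and Col4a2, the only 3 of their list that passed the filter, were called higher than in TEpos.

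Sparc had 35.1, 22.3, 39.9 and 38.7 transcripts per 10000 in milk-high and 40.5, 66.6, 23.5 and 60.5 in milk-low wells, against 2.45, 5.77, 3.42 and 2.64 in TEpos, with neither class overlapping TEpos. Its log2 fold change against TEpos was 3.27 (SE 0.35, edgeR adjusted p = 4.39e-06) in milk-high and 3.90 (SE 0.34, edgeR adjusted p = 1.12e-07) in milk-low wells. Col4a1 stood at 4.05 and 5.09, Col4a2 at 3.87 and 4.45, and Igfbp3, whose product binds insulin-like growth factors, at 4.24 and 3.55 on the same log2 scale, milk-high first in each pair, all called. Vim was higher by 2.31 in milk-high and 2.95 in milk-low wells, Bgn by 2.28 and 2.56, Fam101b, an actin regulator, by 2.32 and 3.09, and the cytoplasmic actin Actb by 0.69 and 1.01. Acta2 was higher by 2.59 (SE 0.65, higher in 3 of 4 libraries) in milk-high and by 4.48 (SE 0.60) in milk-low wells. Sparcl1 was higher by 1.48 and 2.34, and Apoe, an apolipoprotein made by macrophages among others, was called in milk-low wells (2.42, SE 0.38, edgeR adjusted p = 0.000238) and not in milk-high wells (1.21, SE 0.42, edgeR adjusted p = 0.117), a difference between classes that was itself not called (edgeR adjusted p = 0.184). Apoe was called in milk-high wells too once the large well was left out (1.65, edgeR adjusted p = 0.00151). The non-coding RNAs Rn45s, the ribosomal RNA precursor, and Kcnq1ot1 were higher by 1.26 and 1.40 and by 1.2 and 1.0.

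**Figure D5:**
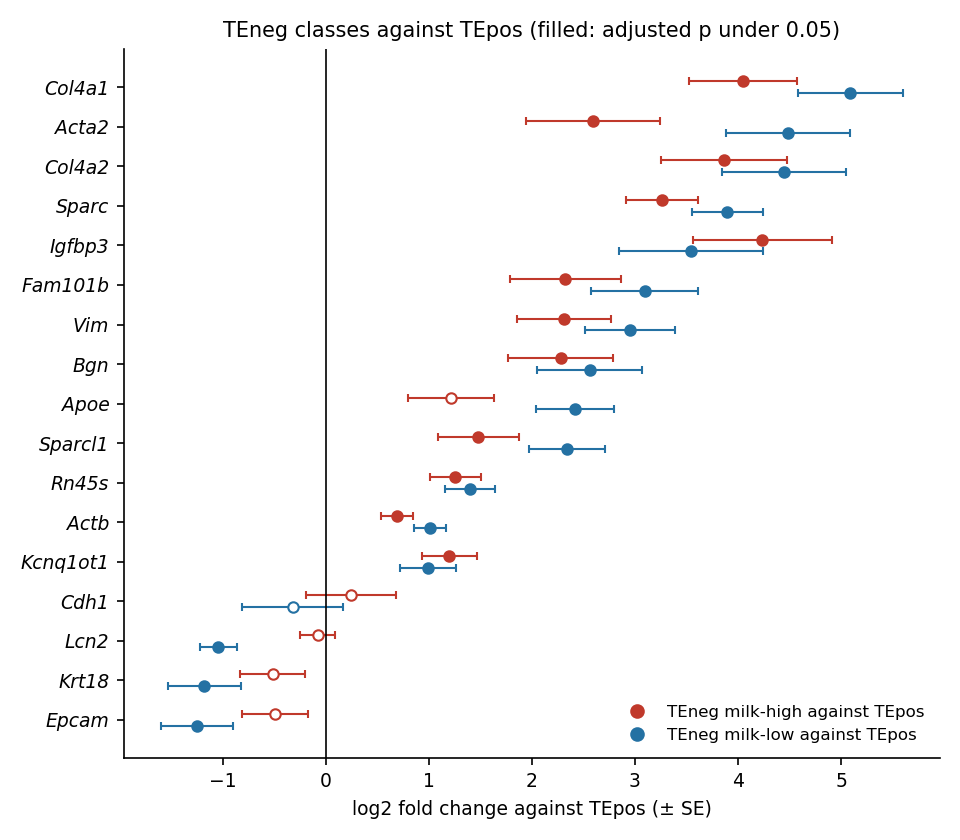
Log2 fold change against TEpos (x axis, ± SE) for milk-high (red) and milk-low (blue) TEneg wells, with filled points for an adjusted p under 0.05; both classes share the TEpos sums. Matrix and actin genes lie to the right in both classes, and, with the large well included, Lcn2, Krt18 and Epcam are filled only for milk-low wells, at -1.04, -1.18 and -1.25.

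With the large well included, genes were called lower than in TEpos in milk-low wells only, and without it in both classes. Lcn2 had a mean of 108 ± 43.3 transcripts per 10000 in milk-high and 53.6 ± 9.08 in milk-low wells, against 128 ± 11.4 in TEpos (SD, n = 4). Against TEpos its log2 fold change was -0.08 (SE 0.17, edgeR adjusted p = 0.888) in milk-high and -1.04 (SE 0.18, edgeR adjusted p = 0.00046) in milk-low wells. Without the large well Lcn2 was called lower in milk-high wells as well (-0.40, SE 0.12, edgeR adjusted p = 0.0201), as were Trf (-0.51, edgeR adjusted p = 0.0146) and Clic6 (-1.53, edgeR adjusted p = 0.0126). Epcam stood at -0.49 (SE 0.32) in milk-high and -1.25 (SE 0.35) in milk-low wells, and Krt18 at -0.52 (SE 0.31) and -1.18 (SE 0.36), with a call in milk-low wells (edgeR adjusted p = 0.0253 for Epcam and 0.0375 for Krt18). For Lcn2 the difference between the classes was called in the test above with the large well and not without it, and for Epcam and Krt18 it was not called. Cdh1 was called in neither class (0.25, SE 0.43 in milk-high and -0.32, SE 0.49 in milk-low wells). The immediate early genes, which respond quickly to stress and growth factors, gave 0 calls of 12 tested in milk-high wells and 1 lower, Fos, in milk-low wells, with medians of -0.779 and -0.543 in milk-high and milk-low wells against 0.0142 and 0.0158 over all genes tested. Leaving out the large well, 1 was called lower in milk-high wells (Zfp36) and 2 in milk-low wells (Fos and Fosb).

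The comparison of milk-high wells with TEpos was also made without wells rich in other cell types' markers. Without the milk-high wells that exceeded every TEpos well in endothelial, basal or immune genes, milk-high wells had 14 genes called against TEpos, 2 higher and 12 lower, of 1404 tested, and 1 of them was among the 15. The 3 milk-low wells left in library 1 still made a sum in this fit. A gene could thus pass on 1 sum, and 1404 genes passed in place of 337. The counts therefore differ by the filter as well as by the wells left out, and the 2 were not separated. In this fit Col4a1 was higher by 2.21 (edgeR adjusted p = 0.0417) and Sparc by 1.56 (edgeR adjusted p = 0.124), while Vim was at -0.09 and Actb at -0.06. Too few milk-low wells remained for the same fit (3, 2, 2 and 1 in libraries 1 to 4).

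The same split could be made among TEpos wells in library 2 alone, where 12 wells were milk-high and 7 milk-low, so it has no test. There Lcn2 had 137 transcripts per 10000 (95% exact Poisson interval 127 to 148, counting error only) in milk-high and 126 (112 to 142) in milk-low TEpos wells. Acta2 had 0.623 (0.128 to 1.82) in milk-high, from 3 transcripts, and 4.57 (2.16 to 8.27) in milk-low TEpos wells, from 10. Sparc had 3.75 (2.21 to 5.9) and 10.1 (6.56 to 15.5), milk-high before milk-low. Ptchd1 had 12.1 (9.13 to 15.5) in milk-high and 4.97 (2.47 to 8.86) in milk-low TEpos wells, higher in milk-high, whereas its TEneg call was lower. The intervals of Lcn2 overlapped and those of Acta2, Sparc and Ptchd1 did not. Whether the split differs between TEneg and TEpos could not be tested with 1 library.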

How the data were processed

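Single cells were profiled by CEL-seq in 4 libraries. The authors deposited raw estimated counts (transcripts per gene, a column for each well), whose values follow the usual conversion from the number of distinct 4-base molecular barcodes seen. The submitters' processing notes name BWA 0.6.2-r126 and mm10; the step from reads to counts was not stated. The tables of the other experiment hold no TEneg wells and were not used. Spike-ins (73) were left out.

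Wells with at least 500 transcripts were used, since each well was meant for 1 cell no doublet caller was run, and wells were assigned to library and population by the deposited barcode table. Transcripts were summed per library and class (at least 3 wells) and rounded to whole numbers. Csn3 and Wfdc18 were left out of tested genes and of library sizes, and levels of other genes are per 10000 of the remaining transcripts. edgeR 4.0.16 (R 4.3.3; quasi-likelihood, TMM, filterByExpr, library as block) tested milk-high against milk-low with TEpos milk-high and milk-low sums in the fit, and both classes against all TEpos wells in a second fit. The block comes from the barcode table, which places all classes in each library; residuals of sums of the same library correlated from -0.0807 to 0.148. The library is the replicate; the labels do not say that libraries come from separate animals, so p-values reflect only library-to-library spread, possibly technical. Sums of different libraries differed by more than sampling noise (chi-square per degree of freedom 1.43 to 3.74). In sums of wells, fewer cells of a type and less RNA per cell cannot be told apart. Binomial intervals are Clopper-Pearson, Poisson intervals are exact, and both cover counting error only, as does the limit that a count of 0 allows (3 counts of the total).

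Named were genes called with the same sign in 4 libraries, the 10 smallest p, tested members of 6 lists (milk, luminal, epithelial, mesenchymal, basement membrane, basal and myoepithelial), Cdh1 and the first 10 by p against TEpos. Genes named beyond that rule were chosen after their values were seen. They were Epcam, Krt18, Trf, Clic6, Fos, Fosb and Zfp36 against TEpos, and Cdh5, Tie1, Esam, Flt1, Kdr, Tek, Emcn, Lum, Dpt, Col6a2, Fbln1, Col6a1, Mgp and Pcna. The wells, the threshold and the lists were chosen with earlier results of these data known. Alternatives used DESeq2 1.42.0, limma 3.58.1, other thresholds, filters, scalings and left-out wells or libraries. Gene positions and promoters are from RefSeq (GRCm38.p6; 10911 of 11753 gene names matched). Reads shared by near-identical genes may have been split.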

Additional observations from a re-analysis of the deposited data

Results flagged for a closer look

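In 5 of 58 groups of 4 libraries tested, 1 library lay far from the other 3 by Dixon's criterion, and chance flags about 1 group in 20. All 5 were milk-low. In library 2, H3f3b was at 132 transcripts per 10000 (others 19.8 to 25.5), Neat1 at 33.1 (others 1.27 to 2.39) and Col4a1 at 55.8 (others 27.5 to 31.7). H3f3b, Neat1 and Col4a1 had been called from these same sums, so the chance rate is not a fair measure for them. In library 4, Sparcl1 was at 33.1 (others 9.72 to 13.5) and the mesenchymal genes summed to 0.681% of transcripts (others 0.447% to 0.478%).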

How the results depend on the processing

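The number of genes called between milk-high and milk-low (9) was 1 with no replicate block, 3 with the DESeq2 Wald test, 3 without a filter on low counts, 4 without the well of over 20000 transcripts, 1 with wells split by Csn3 alone and 2 with wells thinned to 500 transcripts. It was 3 with observed molecular barcodes, 19 without endothelial-rich wells, 5 without basal-rich wells and 1 with all TEpos wells as 1 class (337 genes tested). It was 0 with limma on means of wells, with only the 2 classes in the fit (174 genes tested) and with wells split by Wfdc18 alone (83, 11 and 29 genes at an unadjusted p under 0.05). Leaving out 1 library gave 2 to 12: 5 without library 1, and 2 without library 2 or library 4. Without library 4 all of the 9 except Lcn2 and Ptchd1 lost their call. Of 24 alternatives Lcn2 was called in 16 and Acta2 in 12.

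Milk-high against TEpos (15) gave 68 without a filter, 5 with at least 1000 transcripts per well, 30 (24 higher, 6 lower) without the largest well, 29 and 7 at thresholds of 0.5% and 2%, 7 by Wfdc18 alone, 6 thinned, 29 with observed barcodes, 8 without endothelial-rich wells and 5 to 22 without 1 library, the 5 arising without library 1. Milk-low against TEpos (28) gave 145 without a filter, 43 with at least 1000 transcripts, 44 without the largest well, 94 at 2%, 47 by Wfdc18 alone, 7 thinned and 23 to 28 without 1 library. Scaled by library totals alone, the milk-high calls were 11 higher and 3 lower and the milk-low calls 18 higher and 21 lower; limma gave 13 and 5, and 14 and 14.

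Against milk-low, Acta2 (0.18) and Igfbp5 (1.05) reversed without basal-rich wells, which were chosen on a list that holds both genes, and H3f3b (0.37) by Wfdc18 alone. Against TEpos, milk-high Vim reversed at 2% (-1.11) and without marker-rich wells (-0.091), and Actb without a filter (-0.045) and without marker-rich wells (-0.058); the cause was not tested. Of the values of named genes under alternatives, 1226 kept their side of the threshold, of which 69, all uncalled, had the opposite sign; 143 lost their call, 11 gained one and 7 reversed, with a call in the main result or under the alternative. The 0.5% threshold, and leaving out all marker-rich wells at once, left too few milk-low wells to fit. The settings leaving out marker-rich wells by single list, the 1-class fit and the well richest in H3f3b were chosen after seeing the data. Low depth per sum limits genes of few transcripts.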

Other observations

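Genes of proliferation, outside the lists named above, had no call between milk-high and milk-low wells. Of 20 measured genes 7 were tested, all 7 with negative log2 fold changes and a median of -1.15, against -0.0533 over all genes tested. In the fit of 337 genes 5 of the list passed the filter. Members could thus enter through 1 sum where they were high, and the shared sign is not a result about the list. Their summed share was 0.315%, 0.212%, 0.289% and 0.542% in milk-high and 0.286%, 0.436%, 0.741% and 0.72% in milk-low wells, overlapping, and lower in milk-high in 3 of 4 libraries. Pcna, the DNA polymerase clamp gene, was lower in 4 of 4 libraries without a call (log2 fold change -1.74, SE 0.68, edgeR adjusted p = 0.388). Without the large well the median was -0.937. Genes of the secretory pathway, which folds and exports proteins such as the caseins, gave no call either: of 27 measured genes 15 were tested, 0 were called, and the median was 0.0355 (-0.123 without the large well), with shares of 0.848% ± 0.0959 in milk-high and 0.791% ± 0.164 in milk-low wells (SD, n = 4), against 0.852% ± 0.112 in TEpos. Genes of fat synthesis, another part of lactation, had 2 of 13 measured genes tested and 0 called, with shares of 0.184% ± 0.14 in milk-high and 0.165% ± 0.0348 in milk-low wells.

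Ribosomal protein genes made up 18.4% ± 2.47 of transcripts in milk-high and 18.3% ± 4.51 in milk-low wells, against 22.7% ± 2.22 in TEpos (SD, n = 4), and 0 of the 74 tested were called between the TEneg classes. Oxidative phosphorylation genes had shares of 2.44% ± 0.366 and 2.33% ± 0.497 in milk-high and milk-low wells, against 3.12% ± 0.317 in TEpos, with 0 of 45 called. Clu, the clusterin gene, chosen after its values were seen, was higher in milk-high wells in 4 of 4 libraries and not called (log2 fold change 1.32, SE 0.47, edgeR adjusted p = 0.275).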
